A study of Mus musculus with 4 samples.

Results

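Cilp and 9 genes of matricellular and adhesive matrix proteins (Comp, Postn, Tnc, Fn1, Thbs1, Thbs2, Thbs4, Sparc and Sparcl1) were followed in RNA-seq of smooth muscle cells sorted from the lungs of C57BL/6 mice. The 10 genes were picked by symbol from the 21462 genes of the table. Cilp was selected on its difference between mutant and control libraries, so the differences of the 10 genes are given as a description, without a test. Cilp, Comp and Thbs2 were higher in both Tet3 mutant libraries than in both controls, with a group mean more than 1.5 times that of the controls, and Fn1, Sparc and Sparcl1 had ratios of 1.01, 1.03 and 1.05 with overlapping groups.

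The 4 libraries fell into 2 groups of 2. The Tet3 mutant cells came from animals with a floxed Tet3 allele that was inactivated in the adult by tamoxifen. Recombination was driven by an inducible Cre under the smooth muscle alpha-actin promoter, which is also active in pericytes and myofibroblasts, and a ROSA26 tdTomato reporter marked the cells in which Cre had acted. The study's methods state in general that control animals lacked the floxed allele and carried the Cre, the reporter or both. The methods describe tamoxifen injection for the mice in general and do not say separately that controls received it. Blood cells were depleted with beads against CD45 and Ter-119, and live tdTomato-positive cells were sorted from both groups. The controls sequenced here therefore needed both the reporter and an active Cre, whose activity is induced by tamoxifen. The labels gave no sex, age or batch, and the time from tamoxifen to sorting is not given in the sources used here. Nothing in the labels said whether the samples were separate animals, but the paper's figure legends give 2 independent animals for this RNA-seq. The spread between the 2 libraries of a group is therefore read as the spread between animals.

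Matricellular proteins are secreted into the extracellular matrix, where they bind structural proteins, cell-surface receptors and growth factors and tune how cells attach and respond, rather than bearing load themselves. Many are low in resting adult tissue and are made by mesenchymal cells during development, after injury and in fibrosis, often under transforming growth factor beta (TGF-beta). Cilp encodes cartilage intermediate layer protein, first known from articular cartilage, which binds TGF-beta1 and insulin-like growth factor 1. Fn1, fibronectin, is an abundant adhesive glycoprotein on which other matrix proteins assemble.

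The sequence just before the transcription start is shown for 4 of the 10 genes, because the letters there differ between Cilp and Postn on the one side and Thbs2 and Thbs4 on the other. The RefSeq promoter table (GRCm38.p6) held windows for 6 of the 10 genes. Each line gives the 100 bases before the start, 5′ to 3′ on the strand of the gene, for Cilp (chr9:65265080-65265179, + strand), Postn (chr3:54361007-54361106, + strand), Thbs2 (chr17:14694263-14694362, − strand) and Thbs4 (chr13:92794819-92794918, − strand). Capitals mark the letters TATATAA.
Cilp: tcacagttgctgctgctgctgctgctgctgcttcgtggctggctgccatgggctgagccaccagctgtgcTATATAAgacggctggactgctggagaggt
Postn: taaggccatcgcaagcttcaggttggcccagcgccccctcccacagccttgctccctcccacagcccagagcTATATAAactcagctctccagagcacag
Thbs2: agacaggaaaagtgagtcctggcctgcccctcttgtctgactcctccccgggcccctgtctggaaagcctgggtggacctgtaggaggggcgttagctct
Thbs4: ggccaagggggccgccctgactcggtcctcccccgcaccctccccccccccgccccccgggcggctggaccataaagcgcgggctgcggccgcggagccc

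The 7 letters began 30 bases before the start of Cilp and 28 bases before the start of Postn shown, which lies 2 bases from the start of the gene in the table. The other start given for Postn, 1842 bases from that gene start, did not have them. This motif was chosen after the sequences were seen, and only these exact letters on the strand of the gene were searched. Similar letters, such as cataaa in the Thbs4 line, were not marked. It lay within the last 50 bases before the start in 254 of 32851 windows of the table (0.773%), and one of the 2 starts given for Tnc also had it, 29 bases before. The dinucleotide CG occurred 3 times in the 250 bases before the start of Cilp, 4 times in Postn (3 at its other start), 3 times in Thbs2, 4 times in Sparc, 8 and 10 times at the starts of Tnc and 19 times in Thbs4, and the median over all windows was 6. A match in these letters describes the sequence and does not show that a factor binds there.

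Facts of the libraries touch the values that follow. Sequencing depth, estimated from the spacing of the normalised values, was 6320000 to 7560000 reads assigned to genes per library. Tet3, the targeted gene, had 1847 and 1926 normalised counts in the controls and 1534 and 1444 in the mutants. Control 2 stood apart from the other libraries. It differed by more than 2-fold from each of the other 3 libraries in 387 of 10888 well-expressed genes, against 9 to 72 such genes for each of the others. It also had 774 counts of the Y-linked gene Ddx3y and 2 of Xist, whereas Ddx3y was listed at 0 and Xist at 5214 to 6781 in the other 3, so that sex differed within the control group. Values without control 2 are therefore given beside those that they turn or move most.

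No gene passed an adjusted p of 0.05 in the limma model of log2 values over the 16659 genes tested (0% called; the smallest adjusted p was 0.0902), and none of the 10 genes did. At an unadjusted p under 0.05, 1112 genes were found (6.68%), and limma without a mean-variance trend called 1 gene. Description therefore rested on whether the 2 mutant values lay outside the 2 control values. Both mutants lay above both controls for 5 of the 10 genes, Cilp, Comp, Postn, Thbs1 and Thbs2, whereas 19.6% of all genes tested did so. Both mutants lay below both controls for 0 of the 10, against 19.5% of all genes. A mean more than 1.5 times higher besides was seen for 3 of the 10, Cilp, Comp and Thbs2, against 6.13% of all genes. The median log2 difference of the 10 genes was 0.34 and that of all genes tested was −0.01. These shares describe a list that was drawn up with the difference of Cilp known, and nothing about the list is inferred from them.

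Cilp stood at 405 and 429 normalised counts in control 1 and control 2 and at 717 and 790 in mutant 1 and mutant 2, the order in which the values of all genes are given. Both mutant values were above both controls, and the gap between the groups was wider than the spread within either. Means were 417 ± 17.0 in controls and 753.5 ± 51.6 in mutants (SD, n = 2), a ratio of 1.81 and a log2 difference of 0.85 with a standard error of 0.12. Leaving out each library in turn moved the log2 difference of Cilp only between 0.78 and 0.92. By the size of its log2 difference the gene ranked 629 of the 16659 tested, counted from the highest. Cilp (ENSMUSG00000042254) spans chr9:65265180-65280605 on the + strand of GRCm38.

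The thrombospondins came next. These are secreted multimeric glycoproteins that bind calcium, collagens and cell-surface receptors. Thbs2 and Thbs1 form the trimeric group that limits the growth of blood vessels. Comp and Thbs4 belong to the pentameric group best known from cartilage, tendon and muscle.

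Thbs2 had 252 and 389 counts in controls against 560 and 549 in mutants. The mutant libraries lay close together and above both controls, which were farther apart. Means were 320.5 ± 96.9 and 554.5 ± 7.78 (SD, n = 2), a ratio of 1.73 and a log2 difference of 0.82 (standard error 0.23). Without control 1 the log2 difference of Thbs2 was 0.51. Thbs2 (ENSMUSG00000023885) lies at chr17:14665500-14694235 on the − strand.

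Thbs1, whose product can release TGF-beta from its latent complex, had 3418 and 3387 counts in controls against 3941 and 3710 in mutants. The mutants were again above the controls, although by a small step, from 3402 ± 21.9 to 3826 ± 163 (SD, n = 2), a ratio of 1.12 and a log2 difference of 0.17 (standard error 0.10). Thbs1 (ENSMUSG00000040152) lies at chr2:118111876-118127133 on the + strand and shares 208 exonic bases with Gm29233 on the opposite strand. The paper's methods left out reads that overlapped several genes, and use of strand in counting is not stated. Reads from those bases were therefore either dropped or assigned by strand.

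Comp encodes cartilage oligomeric matrix protein, which binds collagen fibrils. It had 11 and 9 counts in controls against 55 and 28 in mutants. Counting error alone was wide at this depth, with exact Poisson 95% intervals of 5.27 to 18.9 and 4.33 to 18.0 in controls against 40.5 to 71.9 and 19.0 to 39.6 in mutants, calculated on estimated reads and scaled back to normalised counts. By this estimate the lower bound of mutant 2 was barely above the upper bound of control 1. Means were 10 ± 1.41 and 41.5 ± 19.1 (SD, n = 2), a ratio of 4.15 and a log2 difference of 1.88 (standard error 0.48), which ranked 49 among all genes tested. Comp (ENSMUSG00000031849) lies at chr8:70373558-70382066 on the + strand.

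Thbs4, which is found in tendon, muscle and injured vessels, had 10 and 150 counts in controls against 11 and 18 in mutants. One library decided the difference. The 3 libraries other than control 2 lay between 10 and 18, with exact Poisson 95% intervals that overlapped and lay within 4.61 to 27.8, whereas that of control 2 was 127 to 177. The log2 difference was −1.43 with a standard error of 1.25 and became 0.46 without control 2. Thbs4 (ENSMUSG00000021702) lies at chr13:92751590-92794818 on the − strand.

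**Figure D1:**
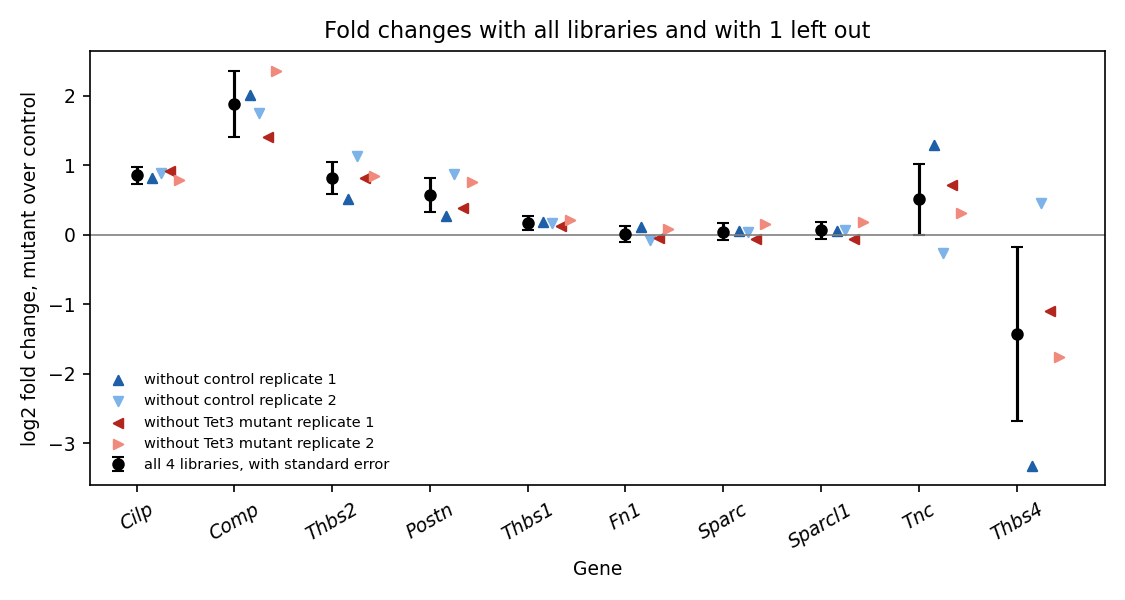
Log2 difference of each of the 10 genes, mutant minus control, as a black point with its limma standard error, and beside it coloured triangles with each library left out in turn. Cilp stays between 0.78 and 0.92, whereas Tnc runs from −0.26 to 1.28 and Thbs4 from −3.32 to 0.46; relative to smooth muscle or pericyte markers (not plotted), Thbs1, Fn1, Sparc and Sparcl1 are below 0, as are the last 3 relative to fibroblast markers.

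Postn, Tnc and Fn1 encode proteins that bind integrins and take part in matrix assembly. Postn (periostin), a secreted protein that promotes cross-linking of collagen and is induced by TGF-beta and interleukin 13, had 723 and 1109 counts in controls against 1514 and 1168 in mutants. The lowest mutant value was just above the highest control value. Means were 916 ± 273 and 1341 ± 245 (SD, n = 2), a ratio of 1.46 and a log2 difference of 0.57 (standard error 0.25). The log2 difference of Postn was 0.88 without control 2 and 0.26 without control 1. Postn (ENSMUSG00000027750) lies at chr3:54361109-54391037 on the + strand.

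Tnc (tenascin C), which is made in wound healing and in remodelled vessel walls, had 1977 and 676 counts in controls against 1428 and 1900 in mutants. Control 1 had the highest value of the 4 libraries and control 2 the lowest, so the groups overlapped fully. The log2 difference was 0.51 with a standard error of 0.51, and it was −0.26 without control 2 and 1.28 without control 1. No direction can be read for Tnc from these libraries. The gene (ENSMUSG00000028364) lies at chr4:63959785-64047015 on the − strand and shares 176 exonic bases with 8030451A03Rik on the opposite strand.

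Fn1 had 6556 and 5741 counts in controls against 6466 and 5941 in mutants. Each mutant value lay between the control values. Means were 6148 ± 576 and 6204 ± 371 (SD, n = 2), with a log2 difference of 0.01 (standard error 0.12), which was −0.08 without control 2. Fn1 (ENSMUSG00000026193) lies at chr1:71585520-71653200 on the − strand and shares 292 exonic bases with the antisense gene Apol7d.

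Sparc and Sparcl1 encode related calcium-binding glycoproteins, of which Sparc (osteonectin) binds fibrillar collagen and acts in its deposition. Sparc had 1691 and 1681 counts in controls against 1872 and 1615 in mutants. The 2 control values lay between the 2 mutant values. Sparcl1 had 2331 and 2343 counts in controls against 2651 and 2244 in mutants, and its libraries fell in the same arrangement. Log2 differences were 0.04 for Sparc and 0.06 for Sparcl1 (standard error 0.12 for each), and both were −0.06 without mutant 1. Sparc (ENSMUSG00000018593) lies at chr11:55394500-55423183 and Sparcl1 (ENSMUSG00000029309) at chr5:104079111-104113733, both on the − strand.

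**Figure D2:**
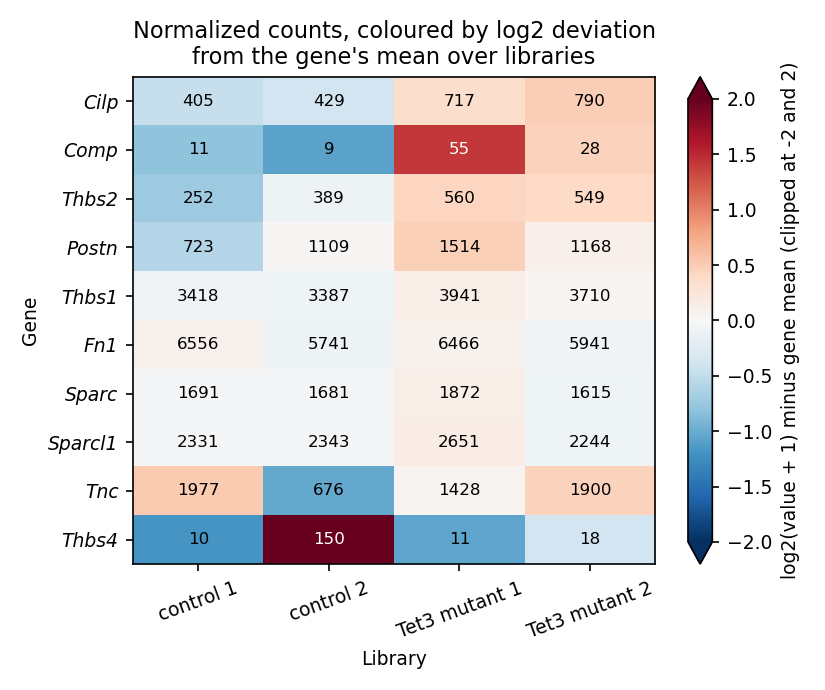
Normalised counts of the 10 genes (rows) in the 4 libraries (columns), coloured by log2(value + 1) minus the mean of the gene over the libraries, with the count printed in each cell. Cilp, Comp and Thbs2 are above their means in both mutants, and Tnc and Thbs4 carry their strongest colours in control 2.

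Between genes, levels were compared as normalised counts per kilobase of annotated exon. Sparcl1 was highest, with a mean of 815 over the 4 libraries, and only 6 of 16645 genes with a known length were higher. Thbs1 followed at 595, Fn1 at 529 and Sparc at 453. Ranges of Thbs1 and Fn1, and of Fn1 and Sparc, overlapped across libraries. Within each library Thbs1 was above Fn1 and Fn1 above Sparc, although Thbs1 and Fn1 were nearly level in control 1, at 563 and 561. Sparcl1 (764 to 903) was above all of them in every library.

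Tnc had 192 counts per kilobase, Cilp 138 and Postn 130, with overlapping ranges. Cilp ran from 95.2 and 101 in controls to 169 and 186 in mutants on this scale, and 3096 genes had a higher mean. Thbs2 was lower, at 62.5, and Thbs4 (14.4) and Comp (8.68) were lowest, with 13612 and 14880 genes above them. The ranges of these last genes overlapped, and Thbs4 had the higher mean through control 2 (45.6), while Comp was above it in each of the other libraries.

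**Figure D3:**
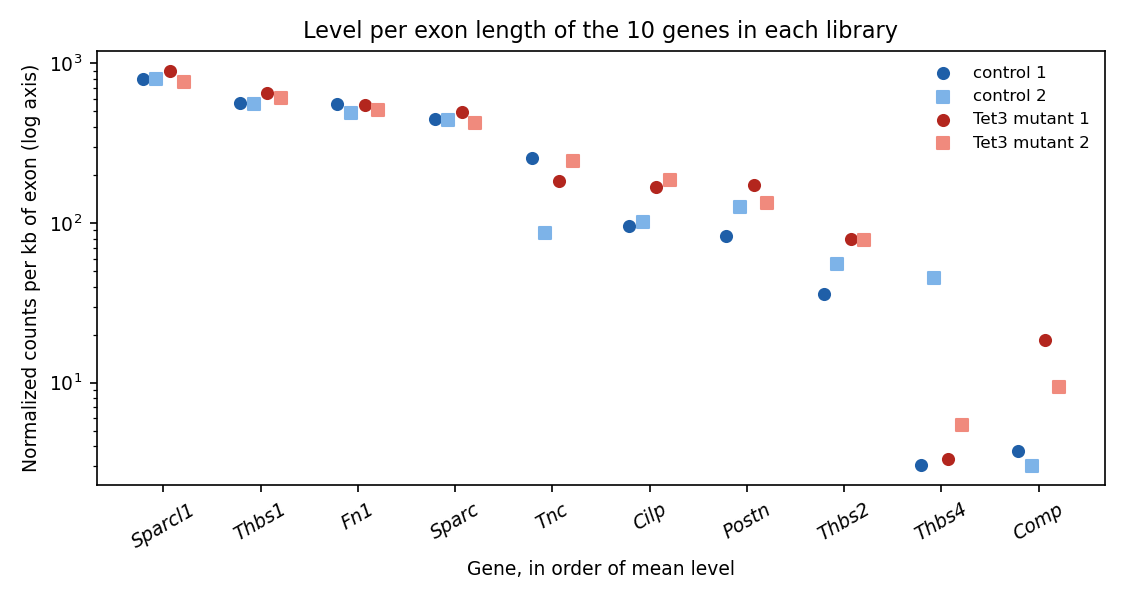
Normalised counts per kilobase of exon (log axis) of the 10 genes, in order of mean level, with each of the 4 libraries as a point (blue, control; red, Tet3 mutant). Sparcl1 is highest at 764 to 903, and the red points of Cilp at 169 and 186 lie above the blue ones at 95.2 and 101.

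The genes whose pattern over the 4 libraries was most like that of Cilp were looked up among 12049 genes, those of the 12788 with a mean of at least 50 whose symbols are not clone names or identifiers. Likeness was the root mean square difference of the log2 values after centring each gene, where 0 is an identical pattern. B4galt6 was closest at 0.0224, with 211, 220, 358 and 403 counts in control 1, control 2, mutant 1 and mutant 2. Ccdc81 (0.0343), Anxa8 (0.0381), Uckl1os (0.0512) and Arhgdig (0.058) followed. With 4 libraries, such a distance describes these values and no more.

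Among the other genes followed here, Thbs2 was closest to Cilp at 0.201 (rank 199) and Postn next at 0.297 (rank 878), while Tnc was farthest at 0.608 (rank 10429). Comp and Thbs4 were below the mean of 50. The smallest distance was between Sparc and Sparcl1, at 0.0141, and Fn1, Thbs1, Sparc and Sparcl1 lay within 0.1 of each other. The distance was not scaled by how much a gene varied, so genes with small differences between libraries lie close. Thbs1, for example, was higher in both mutants, whereas the groups of Fn1 overlapped. The 10 genes thus did not share 1 pattern across libraries.

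The sorted cells were checked against marker genes of the cell types the gate could hold. Acta2, smooth muscle alpha-actin, had a mean of 404 counts per kilobase, Myh11, smooth muscle myosin, 275, and Pdgfra, a fibroblast receptor, 472. Col1a1 had 575 and Abca3, a transporter of alveolar type II cells, 383. On average over the libraries, markers of fibroblasts and alveolar epithelium were therefore as abundant as those that define smooth muscle. In such bulk samples, more cells of a type and more RNA per cell cannot be told apart.

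Several marker lists moved with the groups. Of all genes tested, 19.6% were higher and 19.5% lower in both mutants, which is the background for the counts in this paragraph and the next. Summed counts of 10 smooth muscle markers were 5108 and 6747 in controls against 7952 and 7612 in mutants, and both mutants were higher for 7 of the 10. The 8 pericyte markers summed to 4578 and 4844 in controls against 6532 and 5633 in mutants, with 6 higher and 1 lower in both mutants. The 10 fibroblast markers summed to 24953 and 20534 in controls against 26718 and 23984 in mutants, with overlapping sums and 3 higher in both mutants. The 8 macrophage markers summed to 6270 to 6568 in controls and 7382 to 8093 in mutants, with 6 higher in both mutants.

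Alveolar type II markers went the other way, with sums of 13327 and 19547 in controls against 9604 and 12010 in mutants, and 5 of 6 lower in both mutants. The 11 genes of dissociation stress summed to 9882 and 12793 in controls against 10359 and 7262 in mutants, with 4 lower in both mutants. The 6 endothelial markers summed to 8172 to 9622 in controls and 9089 to 9991 in mutants. The 6 platelet markers, of which 4 were tested, summed to 401 and 233 in controls against 255 and 574 in mutants, overlapping in full. No marker passed the adjusted p of 0.05 in limma. The gene with the highest mean in each list had a log2 difference of 0.43 (Myh11), −0.03 (Pdgfra), 0.33 (Pdgfrb), 0.36 (Mrc1), 0.09 (Kdr), 0.31 (Pf4), −0.86 (Abca3), −0.13 (Jun), −0.22 (Ryr2, cardiomyocyte) and 1.38 (Sox9, cartilage). Without control 2 the direction turned for Ryr2 (0.46), Kdr (−0.04) and Jun (0.02), and the log2 difference was 0.83 for Myh11, −0.13 for Pdgfra and −0.45 for Abca3.

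Cilp and Comp are abundant in cartilage and Comp in tendon, so cartilage markers were looked up as well. Of 10 listed, 5 were in the table and 3 were tested, and Acan, Col9a1, Matn1, Matn3 and Snorc were not analysed here. Col2a1, the main cartilage collagen, had 1 and 0 counts in controls against 2 and 5 in mutants, which is at or near 0. The 5 in the table, Col2a1 among them, summed to 93 and 67 counts in controls against 128 and 157 in mutants, without overlap. Sox9, the cartilage transcription factor, which is also made in airway cells, had 43 and 23 counts in controls against 84 and 83 in mutants. Of the 3 tested, it was the only gene with both mutants above both controls. Much of the sum was Sox9, so the sum and ratios to it lean on this gene. Log2 differences were 0.03 for Col11a2 and 0.51 for Chad, or 0.58 and −0.61 without control 2. Relative to the sum of cartilage markers, the mutant to control ratio of Cilp was 0.988 and the groups overlapped. Cilp is also made in heart, and all 8 cardiomyocyte markers listed summed to 640 and 692 in controls against 1022 and 779 in mutants. Of these, 7 were tested, with a median log2 difference of 0.73, or 0.27 without control 2. Without that library Myh6 turned from 1.25 to −0.11 and Ryr2 from −0.22 to 0.46. Nppa, too low to test but within that sum, was listed at 0 in both controls and had 9 and 27 counts in mutants. The part of any of these cells in the values of the 10 genes was not tested.

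Values of the 10 genes were next divided by the summed markers of smooth muscle, fibroblasts or pericytes, a step added after the data were seen. The smooth muscle sum holds Acta2, Cnn1 and Myh11, which the paper lists among its spuriously transcribed genes. It reports more reads of Acta2 and Cnn1 after loss of Tet3, so this divisor may itself depend on genotype. Ratios to markers were therefore not read as values corrected for the share of a cell type. Per 1000 smooth muscle marker counts, Cilp had 79.3 and 63.6 in controls against 90.2 and 104 in mutants. Per 1000 fibroblast marker counts it had 16.2 and 20.9 in controls against 26.8 and 32.9 in mutants, and per 1000 pericyte marker counts 88.5 and 88.6 against 110 and 140. Mutants stayed above controls on all 3 scales, with ratios of 1.36, 1.61 and 1.41, each smaller than the 1.81 without division.

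Thbs2 likewise stayed above controls on all 3 scales, with ratios of 1.33, 1.51 and 1.35, as did Comp with ratios of 3.04, 3.67 and 3.14. Postn had ratios of 1.12, 1.27 and 1.14, and its groups overlapped on each. Thbs1 turned direction, with ratios of 0.839 relative to smooth muscle markers and 0.873 relative to pericyte markers, both mutants being below both controls, and its groups overlapped relative to fibroblast markers. Fn1, Sparc and Sparcl1 were also below the controls in both mutants relative to smooth muscle and to pericyte markers. Relative to cardiomyocyte markers, Cilp (ratio 1.37) and Comp (2.97) stayed above controls, whereas the groups of Thbs2 (1.31) and of Postn overlapped. Relative to cartilage markers, Comp stayed above controls (2.41), and the groups of Thbs2 (0.924) and Postn (0.792) overlapped, as did those of Cilp.

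**Figure D4:**
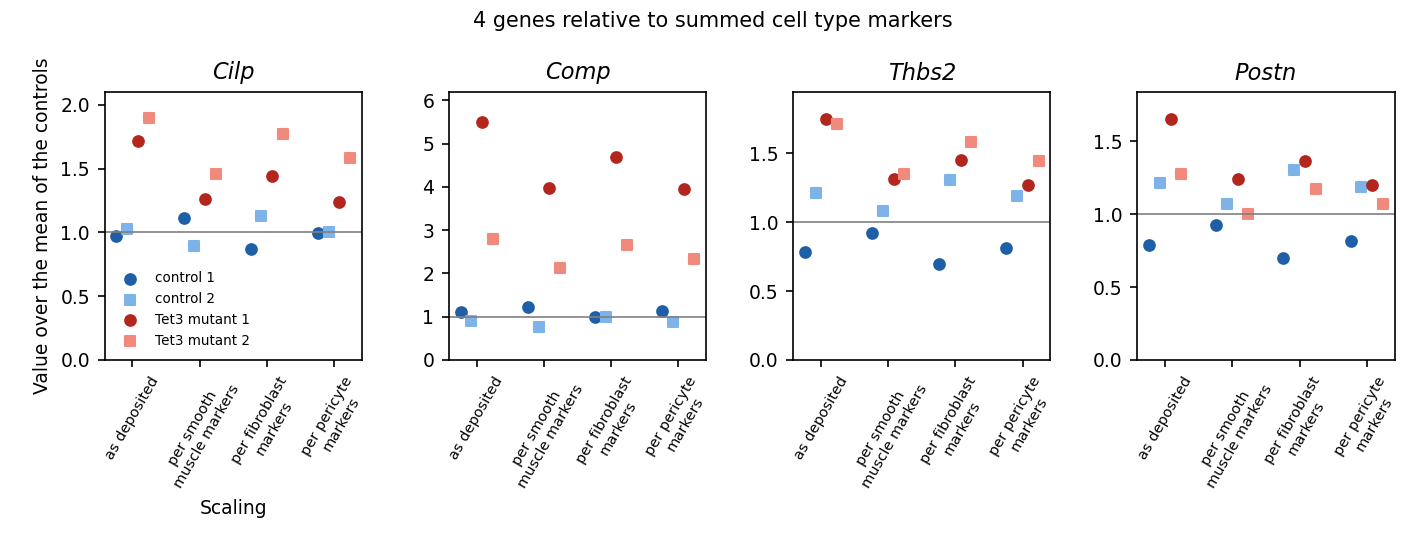
Values of Cilp, Comp, Thbs2 and Postn in each library, divided by the mean of the controls, in normalised counts as deposited and after division by the summed markers of smooth muscle, fibroblasts or pericytes (blue, control; red, Tet3 mutant; grey line, mean of the controls). The red points of Cilp, Comp and Thbs2 lie above the blue ones on every scale, and those of Postn overlap them after each division.

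Other genes of the same biology were taken from 4 lists: further matricellular genes, small leucine-rich proteoglycans, receptors of matricellular proteins, and TGF-beta and insulin-like growth factor 1 signalling. Of 66 genes, 63 were in the table and 60 were tested. None passed the adjusted p of 0.05 in limma (smallest 0.681). At an unadjusted p under 0.05, 6 were found (10%, against 6.68% of all genes), 5 higher and 1 lower in mutants. Both mutants lay above both controls for 21 of the 60 (35.0%, against 19.6%) and below for 5 (against 19.5% of all genes). The same 19.6% and 19.5% are the background for the counts of each list below. The median log2 difference was 0.17.

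Of the 20 further matricellular genes tested, 8 were higher and 2 lower in both mutants, and the median log2 difference was 0.20. Matn2, matrilin 2, an adaptor protein of the matrix, had 241 and 155 counts in controls against 411 and 420 in mutants, a log2 difference of 1.10 (standard error 0.24; limma unadjusted p = 0.00566, adjusted p = 0.681). Ccn3, a member of the family of connective tissue growth factor, had 341 and 285 counts in controls against 496 and 467 in mutants, a log2 difference of 0.62. Tnn, tenascin N, had 23 and 31 counts in controls against 57 and 50 in mutants, a log2 difference of 0.97. These 3 were the ones with an unadjusted p under 0.05 in this list, and their mutant values did not overlap those of controls. The 2 most abundant differed little, with log2 differences of −0.04 for Tnxb, tenascin X, and 0.25 for Fstl1, a secreted relative of Sparc; without control 2, Tnxb was at −0.16. Cilp2, the closest relative of Cilp, was not analysed here.

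All 11 small leucine-rich proteoglycans tested, which bind collagen fibrils and set their spacing, had log2 differences above 0, against 49.0% of all genes, with a median of 0.21, and 5 were higher in both mutants. Without control 2, 8 of the 11 were above 0 and the median was 0.15. Lum, lumican, had 403 and 336 counts in controls against 523 and 574 in mutants, a log2 difference of 0.57 with a standard error of 0.15. Podnl1, at 26 and 18 counts in controls against 47 and 38 in mutants, and Omd, at 61 and 42 against 93 and 79, were low but did not overlap either. The log2 difference of Omd was 0.75, and 0.48 without control 2. The most abundant, Prelp and Bgn, had log2 differences of 0.01 and 0.03, which were −0.05 and −0.03 without control 2.

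The 16 receptor genes tested had a median log2 difference of 0.03, which was −0.04 without control 2, with 5 higher and 3 lower in both mutants. Itga9, an integrin subunit that binds tenascin C, had 2473 and 3067 counts in controls against 1914 and 2066 in mutants, a log2 difference of −0.47 with a standard error of 0.14. Sdc1, an epithelial proteoglycan, had 850 and 1597 counts in controls against 465 and 799 in mutants, a log2 difference of −0.93, or −0.48 without control 2. Itga11, a collagen receptor subunit of fibroblasts, had 139 and 183 counts in controls against 308 and 209 in mutants. Lrp1, the endocytic receptor of thrombospondins, and Itga8, an integrin subunit of smooth muscle and fibroblasts, had log2 differences of −0.02 and −0.01, which were −0.06 and −0.16 without control 2.

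Of 13 genes of TGF-beta and insulin-like growth factor 1 signalling tested, 3 were higher and 0 lower in both mutants. The median log2 difference was 0.15, which was 0 without control 2. Log2 differences were above 0 for 10 of the 13 with all libraries, and for 6 without control 2. Tgfb3, a ligand, had 1013 and 910 counts in controls against 1262 and 1203 in mutants, a log2 difference of 0.36 with a standard error of 0.11. Ltbp2, a latent TGF-beta binding protein by family, had 994 and 1571 counts in controls against 2374 and 1586 in mutants, a log2 difference of 0.63, or 0.96 without control 2. Igf1 had 1160 and 669 counts in controls against 1230 and 1339 in mutants, a log2 difference of 0.54, or 0.15 without control 2, where its value was lowest. Ltbp4 and the receptor Tgfbr2 had log2 differences of 0.02 and 0.10, which were 0.008 and 0.002 without control 2.

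**Figure D5:**
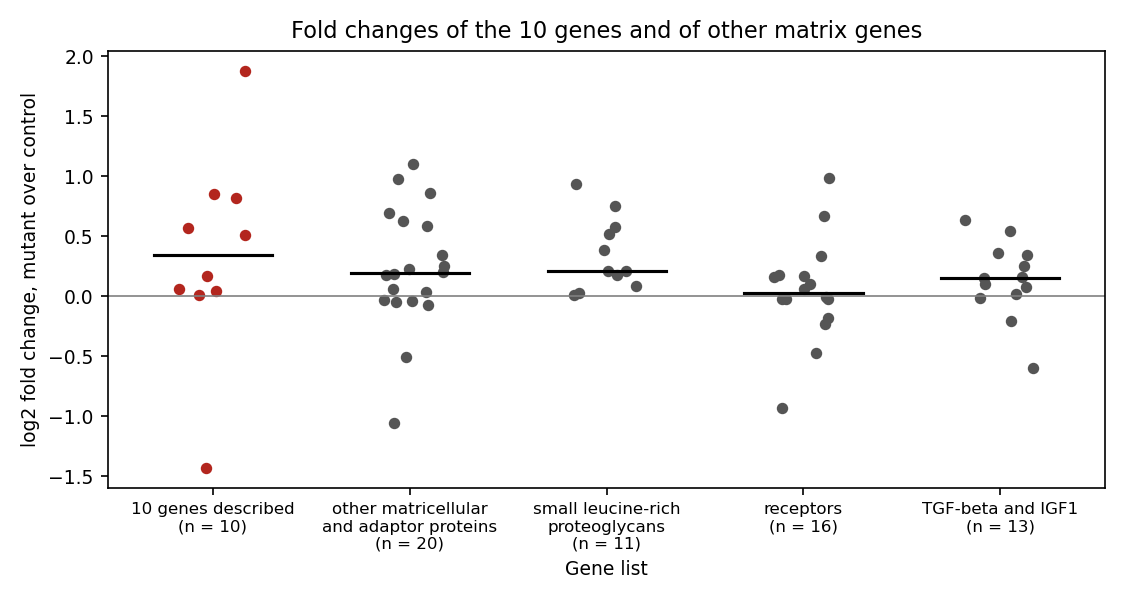
Log2 difference, mutant minus control, of the 10 genes described (red) and of the 60 other genes tested in 4 lists (grey), with each gene as a point and the median of each list as a black line. Medians are 0.34 for the 10 genes and 0.20, 0.21, 0.03 and 0.15 for further matricellular genes, small leucine-rich proteoglycans, receptors and signalling genes.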

How the data were processed

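Total RNA of sorted lung smooth muscle cells (2 control and 2 Tet3 mutant samples) was sequenced as stranded, ribosomal RNA-depleted libraries. The submitters' processing notes name Trimmomatic 0.36, STAR 2.6.0c and Subread 1.6.0 (featureCounts), and the methods give DESeq2 for differential expression. The deposited values are counts per gene normalised between samples and rounded to whole numbers by the authors, treated here as a score and not as raw counts, which were not recovered.

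Genes with a mean of at least 10 (16659 of 21462) were fitted as log2(value + 1) with limma 3.58.1 in R 4.3.3 (mean-variance trend, group as the only term, 2 libraries per group), with Benjamini-Hochberg adjustment and a threshold of 0.05. Fold changes are on this scale and understate those of low genes. Standard errors are those of the model. Group means and SD are of normalised counts. Depth was estimated from the size factors implied by the spacing of values under 150, and Poisson intervals cover counting error only. Gene positions and exon lengths came from GENCODE vM21 (GRCm38), with a length for 99.83% of genes, and promoter sequences from RefSeq. The script was tested on simulated data.

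The 10 genes, the marker lists and the other lists were chosen with earlier results of these data known. Named genes were the 10 genes, Tet3, Xist and Ddx3y, per further list the 2 with the highest mean and the 3 with the smallest unadjusted p, the 5 nearest to Cilp in pattern and the highest gene of each marker list; others are named because a result turned on them. Alternatives were other pseudocounts, filters, scalings, a model without trend, a replicate block, and leaving out each library. Replicate numbers are shared between groups, but deviations of same-numbered samples correlated at 0.134 (Pearson) and 0.123 (Spearman) across 16659 genes, which are not independent, over 2 pairs only, so the numbers were not taken to pair the samples.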

Additional observations from a re-analysis of the deposited data

How the results depend on the processing

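With 2 libraries per group, 1 animal can decide a value, and sex differed within the controls. Counting error was wide for Comp and for the low values of Thbs4, whose difference rested on control 2. The scalings by markers were chosen after seeing the data. Fits without a library leave 1 sample in an arm, which is assumed to vary like the others.

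No gene was called with all libraries, 1 without a trend and 0 under the other alternatives. Genes with an unadjusted p under 0.05 numbered 1112, 876 to 1637 under other settings and 273 to 3362 without 1 library. Of the 60 other genes tested, 6 had such a p, 13 with equal library totals and 0 to 22 without 1 library, and none was called under any alternative. Equal totals moved the median log2 difference of all genes from −0.01 to 0.04 and the share of higher genes among those with an unadjusted p under 0.05 from 57.37% to 69.16%. With a replicate block, 12 of the other genes had such a p and no gene was called (smallest adjusted p 0.1493 in limma). The median log2 difference of the 10 genes was 0.34, 0.22 to 0.31 without 1 library, and −0.067, 0.178 and −0.026 relative to smooth muscle, fibroblast and pericyte markers.

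Without 1 library, log2 differences ran from −0.26 to 1.28 for Tnc, −0.081 to 0.11 for Fn1, −3.32 to 0.46 for Thbs4, −0.062 to 0.15 for Sparc and −0.059 to 0.18 for Sparcl1; control 2 turned Tnc, Fn1 and Thbs4, and mutant 1 turned Fn1 (−0.046), Sparc and Sparcl1. Relative to smooth muscle, fibroblast and pericyte markers, log2 differences were −0.39, −0.15 and −0.35 for Fn1, −0.36, −0.12 and −0.32 for Sparc, and −0.34, −0.10 and −0.30 for Sparcl1, and for Thbs1 −0.24 (smooth muscle) and −0.20 (pericyte). A minimum mean of 50 removed Comp and Thbs4. The cause of these changes was not tested. Count-based tests were planned but not run, since the deposited values are not raw counts.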
